A study of Homo sapiens with 8 samples.

Results

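The histone gene cluster on chromosome 6 holds most of the genes from which dividing cells make the histones that package newly copied DNA. Its members were taken as the protein-coding genes between chr6:26000000-27900000 (GRCh37) with a symbol of the form H1-digit, H2AC, H2BC, H3C or H4C, formerly HIST1H genes. This rule found 50 members of 20176 protein-coding genes in the annotation, and it used no measured value. They comprise 6 genes for the linker histone H1, 11 for H2A, 12 for H2B, 10 for H3 and 11 for H4.

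The DNA methylation of 8 neuroblastoma (NB) cell lines had been profiled by MBD-seq, in which sheared DNA is captured through the part of the protein MBD2 that binds methylated CpG and is then sequenced, so that densely methylated stretches appear as peaks. CHP-902R, IMR-32, LA-N-2 and N206 have an amplified MYCN oncogene (MNA) by their labels, and SK-N-AS, SJNB-1, CLB-GA and SH-SY5Y do not (MYCN single copy). Each line is an established culture of NB tumor cells without any treatment named for these libraries, and each gave 1 sample and 1 peak list, so that lines with the same MYCN status are the replicates here. The results text of the study leaves CHP-902R out when it names its MNA lines, although its supplement counts the line as MYCN amplified. Comparisons are therefore given for all 8 lines and for the 7 lines without it.

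Core histones H2A, H2B, H3 and H4 form the protein spool around which DNA is wound, and H1 binds the DNA between spools. Most genes of the cluster are copied into RNA only while DNA is replicated, from short promoters that the cell keeps active in every division, and their messages end in a stem-loop rather than a poly(A) tail. A few relatives, among them H1-6 (formerly HIST1H1T) and H1-1 (formerly HIST1H1A), are known from the testis or from few tissues. Dense methylation of a promoter is known to go with silence of the gene, but peaks as such carry no expression value.

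A promoter peak was counted for a gene when a peak overlapped the window of 1500 bp before to 1000 bp after any of its annotated transcription start sites (TSS) by at least 1 bp. Many members are shorter than the 1000 bp after the TSS, so their windows run past the end of the gene. A peak that lies wholly beyond the gene was then counted as well. The lists held between 70816 and 112412 peaks per line. All 4 MNA lists, with at least 88496 peaks, were longer than the longest single copy list, with 86079 peaks. Read counts are not part of the lists and the study states depth only as a range over the lines, so depth per line is not known here and a missing peak is a peak not called at that depth. MBD-seq counts fragments from all copies and all cells of a line, so a methylated share of the alleles, a share of the cells and a change in copy number cannot be told apart in a peak. As a check of the labels, peaks covered 8.68% to 19.8% of the DNA within 1 Mb of MYCN with MNA, against 1.87% to 4.76% in single copy lines.

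The sequences on which the results turn are shown first, with every CpG, the dinucleotide that MBD2 binds when methylated, in capitals. They are promoters from 250 bp before to 50 bp after the TSS, read 5′ to 3′ on the strand of the gene from GRCh37. H3C3 (chr6:26045362-26045661, plus strand) is the H3 gene that had a peak over its TSS in 3 MNA lines. H3C2 (chr6:26032278-26032577, minus strand) is its nearest H3 neighbour, without a promoter peak in any line. H1-6 (chr6:26108314-26108613, minus strand) and H4C7 (chr6:26247175-26247474, minus strand) stand for members with a peak over the TSS in MNA lines and in lines of both groups.
H3C3 promoter: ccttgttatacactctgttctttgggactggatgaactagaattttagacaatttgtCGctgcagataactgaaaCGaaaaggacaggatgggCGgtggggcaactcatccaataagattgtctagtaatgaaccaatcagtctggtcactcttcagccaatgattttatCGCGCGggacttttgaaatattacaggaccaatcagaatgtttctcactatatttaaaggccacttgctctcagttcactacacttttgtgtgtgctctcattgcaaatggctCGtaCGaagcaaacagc
H3C2 promoter: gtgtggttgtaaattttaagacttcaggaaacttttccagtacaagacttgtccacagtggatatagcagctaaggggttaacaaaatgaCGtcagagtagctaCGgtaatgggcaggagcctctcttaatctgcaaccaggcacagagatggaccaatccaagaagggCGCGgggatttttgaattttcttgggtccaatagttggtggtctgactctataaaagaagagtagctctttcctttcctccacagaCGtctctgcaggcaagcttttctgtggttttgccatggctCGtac
H1-6 promoter: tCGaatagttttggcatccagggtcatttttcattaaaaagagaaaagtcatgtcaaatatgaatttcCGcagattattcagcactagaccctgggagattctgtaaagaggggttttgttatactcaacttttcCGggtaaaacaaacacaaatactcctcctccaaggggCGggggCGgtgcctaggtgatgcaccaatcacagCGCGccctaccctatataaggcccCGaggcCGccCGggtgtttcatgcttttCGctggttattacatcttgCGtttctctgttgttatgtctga
H4C7 promoter: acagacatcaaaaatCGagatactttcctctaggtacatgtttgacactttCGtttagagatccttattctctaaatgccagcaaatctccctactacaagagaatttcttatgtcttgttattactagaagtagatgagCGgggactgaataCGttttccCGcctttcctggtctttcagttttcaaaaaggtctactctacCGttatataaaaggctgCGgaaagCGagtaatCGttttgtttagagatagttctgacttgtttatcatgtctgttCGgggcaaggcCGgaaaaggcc
The H3C3 promoter holds 8 CpG, that of H3C2 6, that of H1-6 12 and that of H4C7 11.

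Across the cluster, promoter peaks were uncommon. In the MNA lines, 7 members had a promoter peak in CHP-902R, 15 in IMR-32, 15 in LA-N-2 and 11 in N206. In the single copy lines, SK-N-AS, SJNB-1 and CLB-GA each had 4 such members and SH-SY5Y had 5. No line reached the share seen over all protein-coding genes. A gene with more TSS has more windows in which a peak can count, and only 9 members have more than 1 TSS. How far this affects the shares over all genes, here and below, was not tested. CHP-902R had a promoter peak at 14% of the members against 37.5% of all genes, IMR-32 at 30% against 40.9%, LA-N-2 at 30% against 39.8% and N206 at 22% against 36.1%. The gap was wider in the single copy lines, with 8% against 33.7% in SK-N-AS, 8% against 33.2% in SJNB-1, 8% against 35.6% in CLB-GA and 10% against 38.4% in SH-SY5Y.

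**Figure D1:**
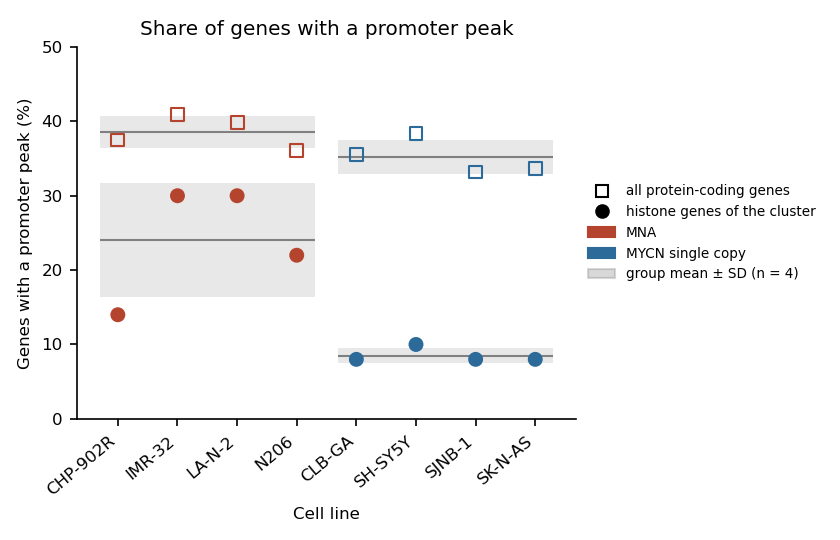
Percentage of genes with a promoter peak (vertical axis) in each cell line (horizontal axis), for the 50 histone genes of the cluster (filled circles) and for all protein-coding genes (open squares), with the mean of each MYCN group (line) and its SD (band, n = 4). The histone genes lie below all genes in every line, and the 4 MNA lines, at 14% to 30%, lie above the single copy lines, at 8% to 10%.

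The mean number of members with a promoter peak was 12 ± 3.83 with MNA (SD, n = 4) and 4.25 ± 0.5 with single copy MYCN (SD, n = 4), and the groups did not overlap. Without CHP-902R the MNA mean was 13.7 ± 2.31 (SD, n = 3). For all protein-coding genes the groups overlapped, with 38.6% ± 2.17 and 35.2% ± 2.34 (SD, n = 4 each). The longer lists of the MNA lines move with this difference. When each list was cut to its 70816 peaks of highest score, the members with a promoter peak numbered 7 in CHP-902R, 14 in IMR-32, 5 in LA-N-2 and 9 in N206, against 4 each in SK-N-AS, SJNB-1 and CLB-GA and 5 in SH-SY5Y. LA-N-2, which has the longest list, then had as many as SH-SY5Y, so the groups touched. With only the peaks scoring 100 or more the groups overlapped, as LA-N-2 and N206 had 1 member each and SH-SY5Y had 2. They also overlapped with a window of 500 bp on each side, with 2 members in CHP-902R against 3 in SH-SY5Y and 4 in SJNB-1. No test was made of these counts, as the cluster was chosen with results of the same lists known.

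Peaks in the windows of the members can be set beside peaks in the rest of the same interval. They covered 3.56% of the members' windows in CHP-902R, 8.11% in IMR-32, 6.97% in LA-N-2 and 5.79% in N206. In the single copy lines they covered 2.15% (SK-N-AS), 3.42% (SJNB-1), 1.67% (CLB-GA) and 2.37% (SH-SY5Y). Every MNA line was thus above every single copy line within the windows, although CHP-902R (3.56%) was close to SJNB-1 (3.42%). These shares come from the full lists, which were longer in the MNA lines. The covered share was not measured for the windows of all protein-coding genes or with lists of equal length. Outside the windows the covered share was 1.3% to 2.1% with MNA and 1.37% to 2.09% with single copy MYCN, and the groups overlapped. The covered share of the whole interval, divided by that of chromosome 6, was 1.38 ± 0.305 with MNA and 1.53 ± 0.139 with single copy MYCN (SD, n = 4 each). The difference between these means was -0.153 (p = 0.429, two-sided exact permutation test over the labels of the lines). Without CHP-902R it was -0.256 (p = 0.171 in the same exact permutation test).

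Of the 50 members, 24 (48%) had a promoter peak in at least 1 line, against 73.9% of all protein-coding genes. The other 26 had none in any line. A peak was present in 1 line for 9 members, in 2 lines for 2, in 3 lines for 7, in 4 lines for 1, in 5 lines for 3 and in 6 lines for 2. No member had one in 7 or 8 lines. A TSS lay inside a peak in at least 1 line for 10 members (39.8% of all protein-coding genes met this condition). By MYCN status, 15 of the 24 members had promoter peaks in MNA lines only, 7 in lines of both groups, and H4C2 and H4C4 in SH-SY5Y only. The same split was not counted over all protein-coding genes, and every MNA list was longer than every single copy list. Whether the split is particular to the members was therefore not tested.

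**Figure D2:**
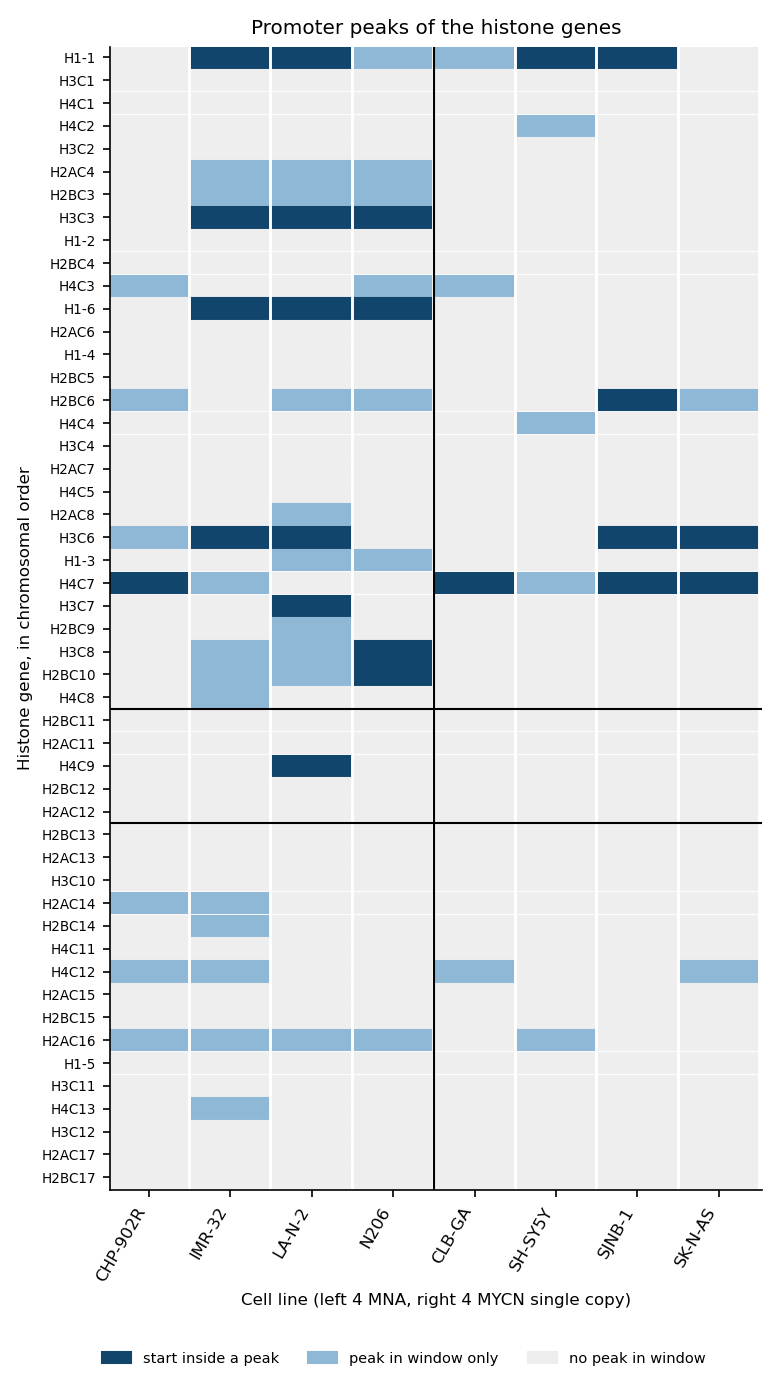
Promoter peaks of the 50 histone genes (rows, in chromosomal order) in the 8 cell lines (columns, 4 MNA on the left). Dark cells mark a TSS inside a peak, light blue cells a peak elsewhere in the promoter window and grey cells no peak, and horizontal lines part the 3 sub-clusters. Marked cells are mostly in the first sub-cluster and in IMR-32, LA-N-2 and N206.

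The members fall into 3 sub-clusters, separated by more than 100 kb without a member. The first holds 29 members (chr6:26017260-26285866), of which 18 had a promoter peak in some line. The second holds 5 (chr6:27093676-27115341), of which H4C9 alone had one, in LA-N-2. The third holds 16 (chr6:27775257-27861669), of which 5 had one. Most promoter peaks of the cluster therefore lay in the first sub-cluster, which had 10 members with a peak in IMR-32, 13 in LA-N-2, 10 in N206 and 4 in CHP-902R. In the single copy lines this number was 3 or 4.

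Among the H1 genes, 3 of 6 had a promoter peak in some line. H1-1 had one in IMR-32, LA-N-2, N206, SJNB-1, CLB-GA and SH-SY5Y, and its TSS lay inside the peak in IMR-32, LA-N-2, SH-SY5Y and SJNB-1. The peaks of N206 and CLB-GA began 801 and 866 bp downstream of the TSS, wholly beyond the end of this short gene. The scores of the 6 peaks, which grow with the confidence of the peak caller, ran from 50.3 in LA-N-2 to 90.4 in SJNB-1, against a lowest score of 50 in the lists. H1-1 was thus among the members most often marked, in lines of both MYCN groups alike.

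H1-6, which encodes the linker histone H1t of male germ cells, had a promoter peak in IMR-32, LA-N-2 and N206 and in no other line. In all 3 the TSS lay inside it. The peak reached from 125 bp upstream to 727 bp downstream of the TSS in IMR-32 (score 76.8), from 164 to 331 bp in LA-N-2 (score 90.6) and from 308 to 681 bp in N206 (score 95.4). IMR-32 had a further peak downstream, beyond the end of the gene, with a score of 89.8. The window of H1-6 was the poorest in CpG of all members, with 2 per 100 bp, although its promoter as printed above holds 12 in 300 bp. H1-3, a linker histone of dividing cells, had a peak that began 960 bp downstream of the TSS in LA-N-2 and 966 bp in N206. Both peaks lay wholly beyond the end of the gene. The replication-dependent genes H1-2, H1-4 and H1-5 had none in any line.

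Among the H2A genes, 4 of 11 had a promoter peak in some line, and in no case did it lie over a TSS. H2AC16 (formerly HIST1H2AL) had one in all 4 MNA lines and in SH-SY5Y. The 5 peaks were centred 944 to 1032 bp upstream, and their starts lay within 178 bp of each other. They scored 132 in CHP-902R and 122 in SH-SY5Y, but 59.7 in IMR-32, 53.9 in LA-N-2 and 89.3 in N206. No peak reached the TSS of this gene.

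H2AC4 (formerly HIST1H2AB) had a peak in IMR-32, LA-N-2 and N206 only. The starts of the peaks differed by at most 17 bp and their ends by at most 18 bp. They were centred 460 to 464 bp upstream and stopped 181 to 198 bp before the TSS. The window of the gene holds 2.96 CpG per 100 bp. The H2A genes without any promoter peak numbered 7.

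The H2B genes had a promoter peak at 5 of 12 members. H2BC6 (formerly HIST1H2BE) had one in CHP-902R, LA-N-2, N206, SJNB-1 and SK-N-AS. The stretch was again shared between lines, centred 1342 to 1698 bp upstream of the main TSS at the edge of the window, with its highest score, 137, in CHP-902R. SJNB-1 also had a peak over an alternative TSS of this gene, more than 11 kb upstream of the main one. With 1 TSS per gene, taken at the 5′ end of the gene record, 1 line had a promoter peak for H2BC6.

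Divergent pairs, in which an H2A and an H2B gene share a short promoter and are read away from each other, number 7 in the cluster. They have 194 to 251 bp between their TSS and make up 14 members, and 6 pairs had no promoter peak in any line. Without any promoter peak were 26 of the 50 members and 5272 of all 20176 protein-coding genes. The windows at the shared start of a pair largely coincide, so the genes of a pair do not count as separate places. In the windows of these 6 pairs, 81.7% (H2AC13) to 97.2% (H2BC11) of the stretches of 45 bases occur once in the genome. How reads from the other stretches were placed is not known here, which limits what a missing peak shows. The other pair was that of H2AC14 and H2BC14. IMR-32 had a peak from 50 to 972 bp downstream of the TSS of H2BC14, with a score of 133, and CHP-902R had a peak of score 60.9 that stopped 1282 bp upstream of H2AC14. The shared promoter between these genes, where both start, was outside both peaks.

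Of the 10 H3 genes, 4 had a promoter peak in some line, and in each of these the TSS lay inside a peak in at least 1 line. H3C6 (formerly HIST1H3E) was marked in 5 lines. Its TSS lay inside a peak in IMR-32, LA-N-2, SJNB-1 and SK-N-AS, with scores of 124, 107, 149 and 96.6. In CHP-902R a peak began 43 bp downstream of the TSS and scored 57.3, and another, from 798 to 1075 bp downstream, scored 103. The peak of SJNB-1 was 1595 bp wide, the widest in the cluster, and scored above 97.8% of its list. H3C6 thus had peaks over the TSS in lines of both MYCN groups. H3C7 had a promoter peak in LA-N-2 only, over the TSS, with a score of 64. H3C8 had one in IMR-32, LA-N-2 and N206, and its TSS lay inside the peak in N206 alone.

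H3C3 (formerly HIST1H3C), which the study names for a difference between MNA and single copy lines in these data, is described with its neighbours. It is read from the plus strand with its TSS at 26045612. The peak over it reached from 832 bp upstream to 574 bp downstream in IMR-32, from 349 to 422 bp in LA-N-2 and from 100 to 536 bp in N206. These peaks held 4.69, 5.96 and 6.75 CpG per 100 bp, in order from the widest to the narrowest. No peak met the window in CHP-902R or in any of the 4 single copy lines. By methylation-specific PCR, a different assay, the supplement of the study lists CHP-902R among the lines methylated at this gene. With that assay the study also reported the gene methylated more often with MNA, in a larger panel of lines and in primary tumors. It further reported lower mRNA of the gene in the methylated lines. The 3 peaks were of ordinary rank in their lists for IMR-32 and LA-N-2, scoring above 49.2% and 32.8% of the peaks, and high in N206, above 87.4%.

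Because H3C3 and H2BC3 (formerly HIST1H2BB) start 1671 bp apart and are read in opposite directions, their windows share 1330 bp. The peaks of IMR-32 and LA-N-2 met both windows. N206 had a separate peak from 295 to 984 bp upstream of H2BC3, and its peak over the TSS of H3C3 did not reach the window of H2BC3. When each peak was given only to the member with the nearest TSS, H3C3 kept 3 lines and H2BC3 kept N206 alone. The promoter peaks of H2BC3 are thus largely those of H3C3.

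The members around H3C3 differed. H3C2, with its TSS 13285 bp to the left, and H1-2, 11086 bp to the right, had no promoter peak in any line. H2AC4, 11766 bp to the left, had the same 3 lines as H3C3. H4C3 (formerly HIST1H4C), 58549 bp to the right, had a peak in CHP-902R, N206 and CLB-GA. These peaks were centred 1041 to 1105 bp downstream of its TSS, at the edge of the window and wholly beyond the end of the gene. H1-6, 62751 bp to the right, again had IMR-32, LA-N-2 and N206. The H3C2 window held 4.28 CpG per 100 bp, the same as that of H3C3, and the printed promoters hold 6 and 8 CpG.

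**Figure D3:**
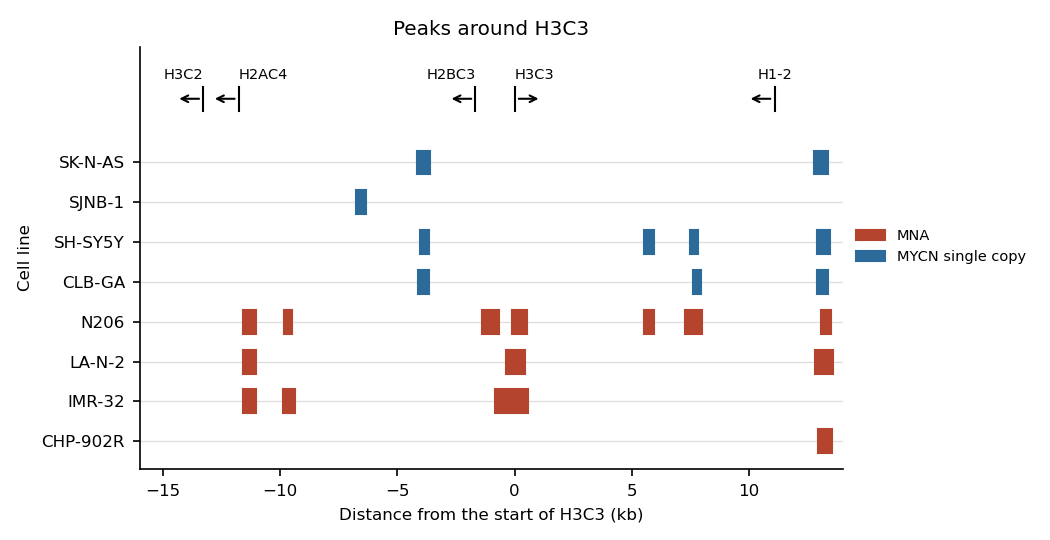
Peaks of the 8 cell lines (rows, red for MNA and blue for MYCN single copy) by distance in kb from the TSS of H3C3 (horizontal axis), with the TSS and direction of the nearby histone genes above. IMR-32, LA-N-2 and N206 have peaks at H2AC4 and at H3C3, while the single copy lines and CHP-902R have peaks only between the gene starts or beyond H1-2.

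The region around H3C3 was not empty of peaks in the other lines. From 16 kb to the left to 14 kb to the right of its TSS, SH-SY5Y had 4 peaks, CLB-GA 3, SK-N-AS 2, and SJNB-1 and CHP-902R 1 each, against 3 in IMR-32, 3 in LA-N-2 and 7 in N206. In the single copy lines none of these lay in the window of a member.

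Of the 11 H4 genes, 8 had a promoter peak in some line, where 73.9% of all protein-coding genes had one, and 5 of these had it in 1 line only. H4C7 (formerly HIST1H4G), whose product differs from the H4 protein that the other genes encode, had one in 6 lines. Its TSS lay inside the peak in CHP-902R, SK-N-AS, SJNB-1 and CLB-GA, and the peaks of IMR-32 and SH-SY5Y began 49 and 5 bp downstream. The score was 163 in CLB-GA, the highest of the cluster and above 98.5% of that list, and 116 in CHP-902R. In the other 4 lines with a peak, the main peak scored between 54.5 and 82. LA-N-2 and N206, both marked at H3C3 and H1-6, had none at H4C7.

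H4C12 (formerly HIST1H4K) had a peak in CHP-902R, IMR-32, CLB-GA and SK-N-AS. The peaks were centred 956 to 1690 bp upstream, and the peak of IMR-32 scored 118. In its window 78.4% of the stretches of 45 bases, the length of a read, occur once in the genome, the lowest share of all members. Reads from the other stretches could have come from elsewhere. The remaining H4 genes with a promoter peak had it in 3 lines (H4C3) or in 1 line (H4C2, H4C4, H4C8, H4C9 and H4C13).

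**Figure D4:**
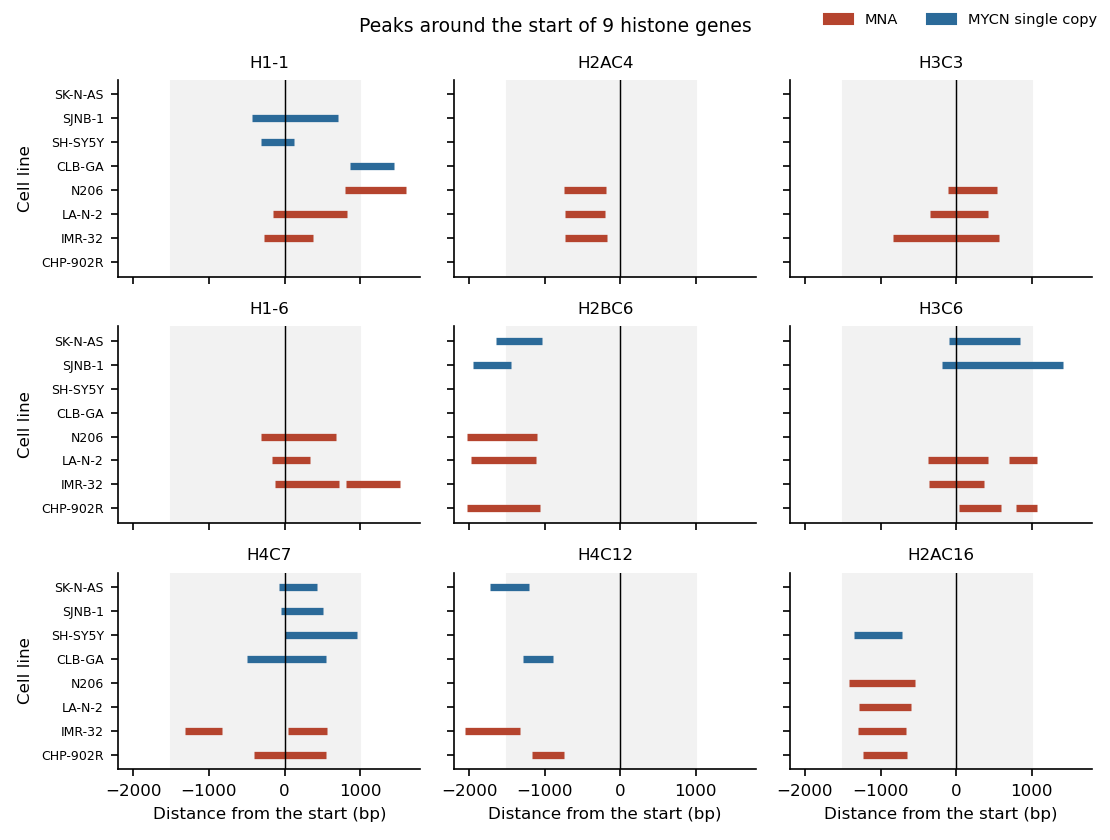
Peaks nearest to the main TSS of 9 members, by distance from the TSS in bp (horizontal axis, negative upstream), in each cell line (rows, red for MNA and blue for MYCN single copy), with the promoter window shaded. Peaks lie over the TSS of H1-1, H3C3, H1-6, H3C6 and H4C7 and upstream of that of H2AC4, H2BC6, H4C12 and H2AC16. The peak of SJNB-1 over the alternative TSS of H2BC6 is outside the plot.

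All in all 64 peaks met the window of a member, 55 of them that of 1 member and 9 that of 2 members. A TSS of a member lay inside 23 of the 64. The centre was within 500 bp of the nearest TSS for 27 peaks, further upstream for 24 and further downstream for 13. The peaks were 278 to 1595 bp wide, with a median of 590 bp, and scored 50.2 to 163, with a median of 80.1. Of these peaks, 15 scored 100 or more. They held 2.38 to 9.01 CpG per 100 bp, with a median of 4.73, where the genome as a whole holds 0.985.

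Considered over all 8 lines, none of the 24 members with a promoter peak had it in all 4 MNA lines and in no single copy line, and none had the opposite pattern. Of all 14904 protein-coding genes with a promoter peak in some line, 40 (0.268%) had the first pattern and 21 (0.141%) the second. Without CHP-902R, 6 of 24 members (25%) had a promoter peak in all 3 MNA lines and in no single copy line, against 105 of 14564 genes (0.721%). These were H2AC4, H2BC3, H3C3, H1-6, H3C8 and H2BC10. The opposite pattern was found for 0 members and for 40 genes (0.275%).

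The 6 members stand for fewer separate places, as H2BC3 and H3C3 share peaks and so do H3C8 and H2BC10. At H3C8 and H2BC10, IMR-32 and LA-N-2 each had 1 peak upstream of H2BC10, scoring 112 and 51.8, whereas N206 had a peak over the TSS of H3C8 (50.2) and another over that of H2BC10 (93). The same window was therefore marked at different places in these lines. With lists of equal length, H2AC4 and H1-6 alone had the pattern of these 3 MNA lines, and with peaks scoring 100 or more no member had it. Over all protein-coding genes, without CHP-902R, 105 had the pattern with the full lists. With lists of equal length 64 genes had it, and with peaks scoring 100 or more 50 genes. In two-sided Fisher's exact tests for each gene, H3C3 had p = 0.143 with the 8 lines (peak in 3 of 4 MNA and 0 of 4 single copy lines). Without CHP-902R, p was 0.0286 (3 of 3 and 0 of 4), which is the smallest p that 3 lines against 4 allow in an exact test. After Benjamini-Hochberg adjustment over all genes with a promoter peak, both were 1 (Fisher's exact test), and no gene of the genome passed 0.05. The smallest p that 4 lines against 4 allow is 0.0286 as well (Fisher's exact test). To pass 0.05 after adjustment, most of the 14904 or 14564 genes would have to reach this smallest p. The adjusted test could therefore hardly find a difference, and nothing is concluded from it. Unadjusted, 61 genes over the 8 lines and 145 over the 7 lines had p under 0.05 in the exact test. As the study names H3C3 for this difference, its p is a description. It covers the presence of peaks in these lines only, and not the study's PCR results in more lines and in tumors.

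The content of CpG can limit where MBD2 captures DNA. The windows of the members held 2 to 5.56 CpG per 100 bp, with a median of 4.12, against a median of 4.2 over all protein-coding genes. The 26 members without a promoter peak had a median of 4.48, the 18 with a peak in 1 to 3 lines 3.72, and the 6 with a peak in at least 4 lines 3.72. H2AC11, the member richest in CpG, had no promoter peak in any line.

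**Figure D5:**
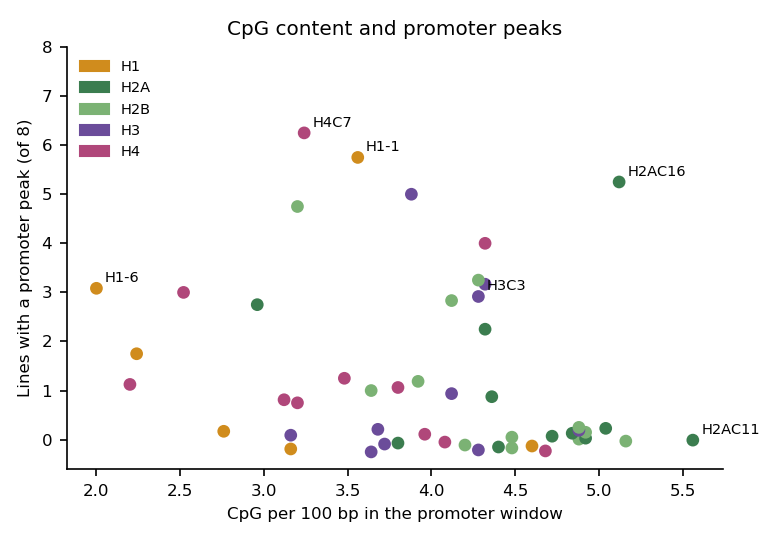
CpG per 100 bp in the promoter window of each of the 50 members (horizontal axis) and the number of cell lines with a promoter peak (vertical axis, of 8), colored by histone class, with points at the same number spread vertically. Members without a promoter peak reach up to 5.56 CpG per 100 bp, and H1-6, with peaks in 3 lines, has the lowest value of 2.

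Promoters of the cluster share short sequences that the counts of peaks did not use. Both strands were searched from 250 bp before to 50 bp after the TSS, and none of the motifs contains another. In the divergent pairs, with 194 to 251 bp between the TSS, both genes were searched over largely the same DNA. A single match there can count for both genes. The TATA box as TATAAA was found in 34 of 50 members (68%, against 9.8% of all protein-coding genes) and CCAAT in 43 (86% against 35.9%). The octamer ATTTGCAT of histone H2B promoters was found in 18 members (36% against 1.58%), of which 9 are H2A and 9 H2B genes. They include both genes of the pairs H2BC4 and H2AC6, H2BC11 and H2AC11, H2BC12 and H2AC12, H2AC14 and H2BC14, and H2AC17 and H2BC17. The even split between H2A and H2B genes can thus come in part from shared DNA, which was not tested. The H1 box as AAACACA was found in 6 members (12% against 4.21%), which are the 6 H1 genes, marked and unmarked alike. The E-box CACGTG, a sequence that MYC proteins bind, was in 0 of these 50 promoters, against 8.73% of all genes.

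As printed above, H3C3 has CCAAT but not TATAAA, while H3C2 has both. H1-6 has CCAAT and the H1 box, and H4C7 has TATAAA but not CCAAT. These matches are descriptions of letters, and whether a factor binds them was not measured.

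Histone genes outside the cluster and other genes within it were counted in the same way. The 15 other protein-coding genes of the interval had a promoter peak in 13.3% to 26.7% of cases with MNA and 6.67% to 26.7% with single copy MYCN, so the groups overlapped where those of the members did not. Of them, 11 (73.3%) had one in some line, against 24 (48%) of the members. Their windows held a median of 2 CpG per 100 bp, below that of the members.

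The 42 histone genes elsewhere in the genome, which include variants made outside DNA replication, had a promoter peak in 10, 10, 6 and 11 cases in CHP-902R, IMR-32, LA-N-2 and N206 and in 9, 7, 8 and 13 in SK-N-AS, SJNB-1, CLB-GA and SH-SY5Y. Of them, 45.2% had a promoter peak in some line, and the MYCN groups overlapped. The 17 genes for the making and handling of histone messages and for histone chaperones had one in 3, 4, 4 and 6 cases in the same MNA lines and in 2, 2, 5 and 5 in the same single copy lines. No test was made of the differences between these lists and the members.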

How the data were processed

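The authors mapped paired-end reads (45 bases each) with Bowtie 0.12.7 on GRCh37 and called peaks with MACS, separately in each line. Options of the peak calling and an input control are not given in the sources used here. The deposited lists give each peak's position and the authors' score, made from the p-value of the peak, with a lowest value of 50. Scores were used only to rank or filter peaks.

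Promoter windows used every TSS of protein-coding genes in GENCODE release 44 as mapped to GRCh37, with 63 distinct TSS for the members. Lines were compared by two-sided Fisher's exact tests with Benjamini-Hochberg adjustment over all genes with a promoter peak, and the covered share by an exact permutation test. Sequence, CpG and motifs were read from GRCh37. The scripts (Python 3.11.15, numpy 2.4.6, pandas 2.3.3, scipy 1.17.1) were tested on simulated data.

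Named were H3C3 with the 3 nearest members on each side, members with a promoter peak in at least 4 lines, members whose group numbers differ by at least 3, and testis genes. H1-3, H3C7, H2AC11, H2AC14, H2BC14 and members of a shared state were named after their values were seen. Members and lists were chosen with earlier results of these data known. Alternatives were a score of at least 100, lists of equal length, peak midpoints, narrower windows, 1 TSS per gene, the nearest TSS, and leaving out each line. Counts over the whole list without CHP-902R were added after seeing the data.

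The sequence of 1 stretch is not reported here.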

Additional observations from a re-analysis of the deposited data

Results flagged for a closer look

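SH-SY5Y had 5 members with a promoter peak, whereas CLB-GA, SJNB-1 and SK-N-AS had 4 each. It stood apart by Dixon's ratio only because the other lines had the same number, and the distance is 1 gene. This was 1 flag in 8 groups of lines examined, and chance gives about 1 in 20. The members of SH-SY5Y were H1-1, H4C2, H4C4, H4C7 and H2AC16, of which H4C2 and H4C4 had a promoter peak in no other line.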

How the results depend on the processing

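The mean number of members with a promoter peak in the MNA lines was 12, but 3.25 with only the peaks scoring 100 or more and 6.25 with a window of 500 bp on each side. The single copy mean of 4.25 became 1 and 2.5 under the same settings, 3.5 by peak midpoints and 3.75 with a window to 500 bp downstream. The difference of 7.75 became 2.25 with the score minimum, 3.75 with 500 bp on each side and 4.5 with lists of equal length. Members with a promoter peak in some line fell from 24 to 12 and 15 with the score minimum and 500 bp on each side. The cause of these moves was not tested.

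H3C3 had p = 0.143 (Fisher's exact test), and 0.0286 to 0.143 when each line was left out in turn. Among the lines left out, only CHP-902R gave 0.0286. With lists of equal length the p of the exact test was 0.429, and with the score minimum 1. Genes of the genome that separated the groups with a peak in the MNA lines numbered 40, and 10 with the score minimum, 22 with lists of equal length, 25 with 500 bp on each side, 18 with 1 TSS per gene and 70 to 105 with a line left out. With a peak in the single copy lines they numbered 21, and 2, 44, 13, 10 and 34 to 45. With lists of equal length the larger of the 2 numbers was therefore the one towards the single copy lines. Among members, 0 separated the groups towards the MNA lines, and 0 to 6 did with a line left out, 6 without CHP-902R and 1 without SH-SY5Y. The difference between the group means in members with a promoter peak kept its sign under every alternative run. The lines of the 2 groups overlapped, however, with the score minimum and with 500 bp on each side. No paired analysis was possible because the labels give no replicate numbers, and those used here only name different cell lines. Depth per line is not known from the lists, which limits what a missing peak shows.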

Other observations

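Of the 4 testis genes named for this work, H2AC1 and H2BC1, a histone pair known from male germ cells, lie on chromosome 6 outside the interval of the cluster. Both had a promoter peak in CHP-902R, IMR-32, N206 and SH-SY5Y. Whether the same peaks were counted for both genes was not examined. The germ cell linker histone gene H1-7 and the germ cell H3 gene H3-4 had a promoter peak in all 8 lines, and H3-3B, a gene for the replacement histone H3.3, in 7. H1-7, H3-4 and H3-3B were named after their values were seen. Other histone genes known from germ cells differ, as H2AB1, H2AB2, H2AB3 and H2AL3 had no promoter peak in any line whereas H2BW2 had one in 2 lines and H2BW1 in 5. How much of the sequence at these genes occurs once in the genome was not measured, which limits what a missing peak shows.

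Among the 17 genes for histone messages and chaperones, 11 had a promoter peak in some line. CHAF1B, a subunit of the chaperone that places histones on new DNA, had one in 6 lines, the exonuclease gene ERI1 in 5 and the chaperone gene NASP in 4. NPAT, an activator of histone gene transcription, and the chaperone genes ASF1A and ASF1B had none in any line.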
